A study of Mus musculus with 6 samples.

Results

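The genes described here encode the entry of pyruvate into mitochondrial oxidation and the cycle that follows it: the pyruvate dehydrogenase kinase gene Pdk1, the pyruvate dehydrogenase subunit genes Pdha1, Pdhb and Dlat, and the tricarboxylic acid (TCA) cycle genes Cs, Idh3a, Idh2, Ogdh and Mdh2. They were chosen by name, as the Ensembl gene rows of these 9 genes among 22095 gene rows of the deposited table, and each had 1 row. RNA had been sequenced from CD8 T cells of wild type C57BL/6 mice, an inbred laboratory strain. Naive cells from the spleen were kept for 48 h in RPMI medium with serum and mouse IL-2 and were activated there by anti-CD3 and anti-CD28, antibodies that engage the T cell receptor complex and a co-receptor. The control group of 3 libraries received DMSO, the solvent, and the other group of 3 libraries received ponatinib at 10 nM, a multi-kinase inhibitor made against BCR-ABL. The question here is how the transcripts of this pathway stood in cells activated in the presence of the drug. Whether the replicates of a group came from different mice or cultures is not labelled, so p-values reflect nothing beyond the spread among these samples, and that spread may be technical.

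Pyruvate made by glycolysis is either reduced to lactate in the cytosol or carried into mitochondria, where the pyruvate dehydrogenase complex turns it into acetyl-CoA. Pyruvate dehydrogenase kinases phosphorylate the alpha subunit of the complex and switch it off, and phosphatases switch it on again. Acetyl-CoA enters the TCA cycle through citrate synthase, and the cycle's dehydrogenases pass electrons to the respiratory chain. Activated T cells use the cycle for energy and as a source of citrate for lipid synthesis, and Pdk1 is a textbook target of the hypoxia-inducible factor HIF-1.

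With ponatinib the kinase gene fell while the genes of the enzyme it controls did not pass the test. Pdk1 was lower by 0.54 on the log2 scale, from 43.4 ± 3.86 to 29.6 ± 2.51 TPM (transcript abundance scaled to a fixed total per library; mean ± SD, n = 3 per group). Ogdh rose by 0.26 on the log2 scale, Idh2 was lower with a log2 fold change of -0.18 near the threshold, and the other 6 genes did not pass. Calls rest on limma applied to log2(TPM + 1) in the 6466 genes whose mean reached 10 TPM, with a Benjamini-Hochberg adjusted p under 0.05 over all of them; every adjusted p below is of that kind. All 9 genes were above that minimum. Of all tested genes 39.7% were called, 29.9% higher and 9.88% lower, and 3 of the 9 genes is no more than that background. The median log2 fold change of the 9 genes was 0.06, against 0.10 over all tested genes. A lower level in bulk RNA cannot be told apart between fewer cells that make a transcript and less of it per cell.

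The promoters of Pdk1 and Ogdh, which were called in opposite directions, are shown. Each is the 250 bases before the RefSeq start site nearest to the annotated gene start (RefSeq, GRCm38.p6), at chr2:71872974-71873223 for Pdk1 and chr11:6291409-6291658 for Ogdh, both on the plus strand. Capitals mark GCGTG, a core of hypoxia response elements, in Pdk1, and TGACGTCA, the cyclic AMP response element, in Ogdh. The Ogdh window holds the hypoxia core too, which is not marked there.
Pdk1: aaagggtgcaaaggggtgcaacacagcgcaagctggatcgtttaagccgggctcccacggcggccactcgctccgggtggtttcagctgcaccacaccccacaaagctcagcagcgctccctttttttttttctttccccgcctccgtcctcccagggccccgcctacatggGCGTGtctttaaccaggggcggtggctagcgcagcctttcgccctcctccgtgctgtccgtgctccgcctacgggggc
Ogdh: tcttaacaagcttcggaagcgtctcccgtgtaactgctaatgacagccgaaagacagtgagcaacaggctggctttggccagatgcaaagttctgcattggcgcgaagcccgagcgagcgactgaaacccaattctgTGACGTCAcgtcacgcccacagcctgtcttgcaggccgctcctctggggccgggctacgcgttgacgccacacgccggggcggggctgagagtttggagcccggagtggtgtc

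Of the 9 genes, 8 had a promoter in that table; Idh3a had no entry. On both strands, GCGTG was found in 6 of the 8 and in 28.2% of the 32851 promoters of the table, and ACGTG, the other form of the hypoxia core, in 2 of the 8 and 16.6%. In the Pdk1 window GCGTG began 78 bases before the start site and ACGTG was not found. The Ogdh window held more matches of the hypoxia core than that of Pdk1, all of them on the other strand. GCGTG lay at 102 and 43 bases before the Ogdh start. ACGTG, overlapping the end of TGACGTCA, lay at 107 bases before it. The Mdh2 window held GCGTG at 97 bases. TGACGTCA was found in 2 of the 8, Ogdh and Mdh2, and in 1.55% of all promoters. The RefSeq start of Mdh2 lies 169 bases from its GENCODE start. Its TGACGTCA and GCGTG matches, 127 and 97 bases before the RefSeq start, therefore fall inside the gene as GENCODE annotates it. GGGCGG, the SP1 box, was found in 7 of the 8 and 32.7%. CACGTG, the E-box that contains ACGTG, CCGGAAGT, an ETS site, and TNAAGGTCA, an oestrogen-related receptor site, were found in 0 of the 8, and in 6.02%, 2.88% and 1.14% of all promoters. The GC content of the 8 windows was 55.2% to 67.2%, against a median of 52.4% over the table, and GC-rich motifs are more frequent in such sequence. These matches describe the letters of the windows and show no binding, and TGACGTCA was added to the search after the sequences had been seen.

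**Figure D1:**
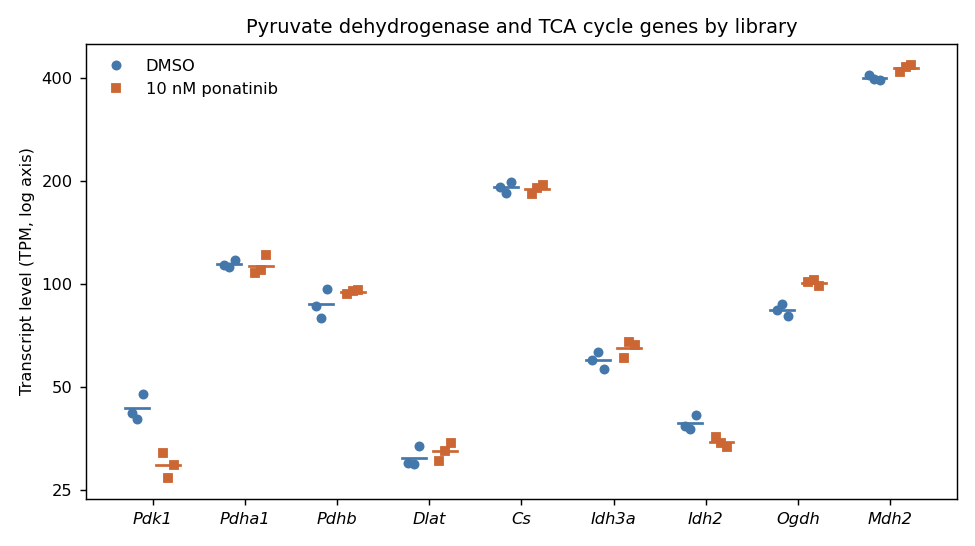
Transcript level in TPM (log axis) of the 9 genes in each library, with DMSO as circles, ponatinib as squares and a bar at each group mean. The groups lie apart for Pdk1, Idh2, Ogdh and Mdh2, and overlap for the other 5 genes.

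Pdk1 (ENSMUSG00000006494; chromosome 2, 71873224 to 71903858 on the plus strand of GRCm38) encodes a mitochondrial kinase that inhibits pyruvate dehydrogenase. It stood at 42.1, 40.3 and 47.7 TPM in DMSO replicates 1, 2 and 3 and at 32.1, 27.1 and 29.5 TPM in ponatinib replicates 1, 2 and 3. Every ponatinib library lay below every DMSO library, and the highest value was in DMSO replicate 3. The log2 fold change was -0.54 (SE 0.086, 95% interval -0.74 to -0.34, limma adjusted p = 0.00282). Only 3.87% of tested genes had a lower log2 fold change. The call was made under all 17 alternative settings tried, with log2 fold changes from -0.63 to -0.47 and adjusted p from 7.51e-04 to 0.0166. A list of 18 hypoxia response genes without Pdk1 had 17 with a row and 12 tested. In the same libraries those 12 fell, where 9.88% of all tested genes fell. The list was chosen with earlier results of these data known, so this count is no independent support. A part of HIF-1 in the fall of Pdk1 was not tested. Ankrd37 and Mxi1 were among the 12 through their DMSO levels, with ponatinib means of 6.64 and 7.46 TPM. Of the 5 that were not tested, P4ha2, Vegfa and Pfkfb4 lay lower without overlap, and Car9 and Adm, both under 1 TPM, overlapped. The median log2 fold change of the 12 was -1.41, and 11 of the 12 fell by more than Pdk1; the exception was the demethylase gene Kdm3a, at -0.31 (adjusted p = 0.0298).

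Pdk1 shares its role with Pdk2, Pdk3 and Pdk4, which encode the other pyruvate dehydrogenase kinases. Pdk3 was the most abundant of them in all 6 libraries, at 58.2 ± 6.94 TPM with DMSO and 51.1 ± 1.77 TPM with ponatinib. Its groups did not overlap, but it did not pass the test (log2 fold change -0.18, adjusted p = 0.128); with medians of ratios as the scaling it did, at -0.27 (adjusted p = 0.0115), and with quantile normalization at -0.24 (adjusted p = 0.0246). Pdk2 was low and went the other way, from 1.45, 1.03 and 0.948 TPM with DMSO to 3.23, 2.69 and 2.77 TPM with ponatinib. It lay under the minimum mean of 10 TPM; with a minimum mean of 1 TPM it was called higher (log2 fold change 0.87, SE 0.13, adjusted p = 0.00253). Pdk4 was listed at 0 in all ponatinib libraries and reached 0.01 TPM at most with DMSO.

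Of the summed level of the 4 kinase genes, Pdk1 made up 42.8%, 42.5% and 41.5% in the DMSO libraries and 38.0%, 32.9% and 35.2% in the ponatinib libraries. Pdk2 made up 1.13% ± 0.327 with DMSO and 3.47% ± 0.309 with ponatinib (SD, n = 3). The sum itself was 98.3, 94.9 and 115 TPM with DMSO and 84.4, 82.3 and 84.0 TPM with ponatinib, so the groups lay apart with ponatinib lower. The ratio of Pdk1 to Pdk3 was 0.747 ± 0.0238 with DMSO and 0.581 ± 0.0694 with ponatinib, with no overlap; ratios between single genes were chosen after their values had been seen and carry no test.

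None of the 3 subunit genes of the complex passed the test. Pdha1, on the X chromosome, encodes the alpha subunit that the kinases phosphorylate. It stood at 114, 112 and 118 TPM with DMSO and at 108, 110.1 and 121 TPM with ponatinib, and the groups overlapped. Its log2 fold change was -0.020 (95% interval -0.15 to 0.11, limma adjusted p = 0.808). Pdhb, on chromosome 14, encodes the beta subunit of the same enzyme. It stood at 86.0, 79.4 and 96.4 TPM with DMSO and at 93.3, 95.4 and 95.8 TPM with ponatinib. DMSO replicate 3 alone reached the ponatinib range. The log2 fold change of Pdhb was 0.12 (95% interval -0.043 to 0.29, adjusted p = 0.208), and without DMSO replicate 3 it was called higher, at 0.20 (adjusted p = 0.0129).

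Dlat, on chromosome 9, encodes the acetyltransferase core of the complex and was the least abundant of the 9 genes with DMSO. It stood at 30.0, 29.9 and 33.6 TPM with DMSO and at 30.5, 32.6 and 34.4 TPM with ponatinib. The groups overlapped, with a log2 fold change of 0.060 (95% interval -0.11 to 0.23, adjusted p = 0.539). Between genes of the complex the levels per length differed more than between groups: the ratio of Dlat to Pdha1 was 0.272 ± 0.0117 with DMSO and 0.288 ± 0.00697 with ponatinib, and that of Pdhb to Pdha1 was 0.761 ± 0.0554 and 0.841 ± 0.043. Both ratios overlapped between the groups.

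A ratio taken within each library does not depend on how libraries are scaled. The log2 ratio of Pdk1 to the geometric mean of Pdha1, Pdhb and Dlat was -0.66, -0.67 and -0.60 in the DMSO libraries and -1.07, -1.37 and -1.32 in the ponatinib libraries. There was thus 0.639 of a Pdk1 transcript per subunit transcript with DMSO and 0.42 with ponatinib, as geometric means. The difference of -0.61 (SDs 0.04 and 0.16, n = 3 per group) gave an exact two-sided permutation p of 0.1, the smallest that 3 against 3 libraries allow. It kept its sign when any 1 library was left out, between -0.70 and -0.55.

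**Figure D2:**
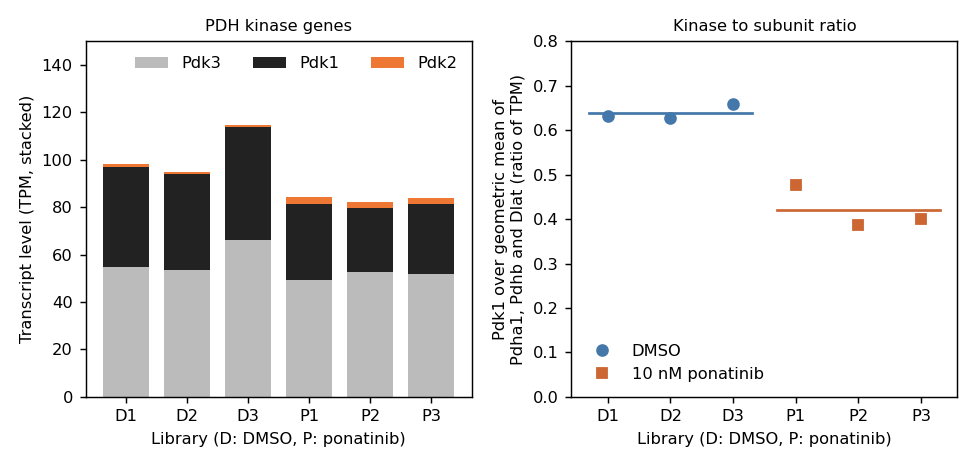
Left, stacked TPM of Pdk3, Pdk1 and Pdk2 in each library; Pdk4, at or near 0, is not drawn. Right, the ratio of Pdk1 TPM to the geometric mean TPM of Pdha1, Pdhb and Dlat in each library, with a line at each group's geometric mean, which is 0.639 with DMSO and 0.42 with ponatinib.

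The rest of the complex and its regulators had 0 higher and 0 lower genes among 7 tested of 13 listed. Of all tested genes 29.9% were higher and 9.88% lower. The median log2 fold change of the 7 was -0.05. Dld, the dihydrolipoamide dehydrogenase shared with other complexes, was at 73.7 ± 8.60 and 69.6 ± 5.70 TPM with DMSO and ponatinib (adjusted p = 0.527). Pdhx, which anchors Dld in the complex, was at 12.2 ± 0.644 and 12.5 ± 0.683 TPM (adjusted p = 0.797). The pyruvate carrier gene Mpc1 lay lower without overlap, at 103 ± 6.98 and 91.6 ± 1.98 TPM, and missed the threshold (adjusted p = 0.0542); it was named after its value was seen. The genes under the minimum mean were Pdk2, Pdk4, the phosphatase genes Pdp1 and Pdp2, and the lipoate transferase genes Lipt1 and Lipt2.

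Cs, on chromosome 10, encodes citrate synthase, which joins acetyl-CoA to oxaloacetate. It stood at 192, 184 and 199 TPM with DMSO and at 183, 191 and 194 TPM with ponatinib, with overlapping groups. The log2 fold change was -0.020 (95% interval -0.14 to 0.095, limma adjusted p = 0.775).

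Idh3a, on chromosome 9, encodes the catalytic subunit of the NAD-dependent isocitrate dehydrogenase. Its gene row stood at 60.1, 63.3 and 56.5 TPM with DMSO and at 60.7, 67.7 and 66.5 TPM with ponatinib. The groups overlapped through ponatinib replicate 1, and the log2 fold change was 0.11 (95% interval -0.039 to 0.27, adjusted p = 0.204). The regulatory subunit genes Idh3b and Idh3g, at 0.069 and -0.078 (adjusted p of 0.370 and 0.247), did not pass either; with quantile normalization Idh3g was called lower, at -0.16 (adjusted p = 0.0350). The table also carried a separate row for an Idh3a transcript, Idh3a-204, annotated as a target of nonsense-mediated decay, with 12 exons and 1812 bases. That row held 33.2, 24.9 and 38.9 TPM with DMSO and 39.1, 33.2 and 39.3 TPM with ponatinib. With it added to the gene row, the groups no longer overlapped, and the log2 fold change of Idh3a was 0.15 (adjusted p = 0.0685). The gene row alone therefore leaves out a sizeable part of what was assigned to this locus, more than for any other of the 9 genes.

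Idh2, on chromosome 7, encodes the NADP-dependent mitochondrial isocitrate dehydrogenase. It stood at 38.6, 37.6 and 41.4 TPM with DMSO and at 35.65, 34.3 and 33.4 TPM with ponatinib. The groups did not overlap, and the log2 fold change was -0.18 (SE 0.061, 95% interval -0.32 to -0.039, adjusted p = 0.0472). The call was lost in 11 of 17 alternatives: with a minimum mean of 1 TPM (adjusted p = 0.0545), with no filter (0.0569), with transcript rows added (0.0596), with robust empirical Bayes (0.0514), with the replicate number as a block (0.0726), and without any 1 library (0.0567 to 0.152). With medians of ratios it was clearer, at -0.27 (adjusted p = 0.00746). The cytosolic form, Idh1, was low and lay lower as well, at 3.97, 4.54 and 4.87 TPM with DMSO and 2.82, 1.81 and 2.47 TPM with ponatinib; it was under the minimum mean, and with a minimum of 1 TPM its log2 fold change was -0.71 (adjusted p = 0.00734). The ratio of Idh2 to Idh3a was 0.656 ± 0.07 with DMSO and 0.532 ± 0.0479 with ponatinib, without overlap.

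Ogdh (ENSMUSG00000020456; chromosome 11, 6291633 to 6356642 on the plus strand) encodes the first subunit of the 2-oxoglutarate dehydrogenase complex, which turns 2-oxoglutarate into succinyl-CoA. It stood at 84.1, 87.4 and 80.7 TPM with DMSO and at 101, 103 and 98.9 TPM with ponatinib. All ponatinib libraries lay above all DMSO libraries. The log2 fold change was 0.26 (SE 0.051, 95% interval 0.14 to 0.38, limma adjusted p = 0.00595), and 4982 of the 6466 tested genes had a lower one. The rise was called without any 1 library and without the mitochondrial genome's rows (0.25, adjusted p = 0.0141), but not with medians of ratios (0.17, adjusted p = 0.110) or with quantile normalization (0.19, adjusted p = 0.0510). Those scalings move the median of all genes from 0.10 to 0.012 and 0.028. Relative to the median of all tested genes the rise of Ogdh was 0.16.

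Dlst, the succinyltransferase of the same complex, stood at 92.3 ± 1.62 TPM with DMSO and 97.5 ± 4.58 TPM with ponatinib, with overlap (log2 fold change 0.078, adjusted p = 0.270). The ratio of Ogdh to Dlst was 0.908, 0.933 and 0.892 in the DMSO libraries and 1.09, 1.03 and 0.979 in the ponatinib libraries, so it did not overlap. The related gene Ogdhl was near 0, at 0.443 ± 0.0439 and 0.450 ± 0.119 TPM, and Pdha2 and Csl, copies of Pdha1 and Cs, were listed at 0 in every library; these genes were looked up after the values had been seen. The sources used here do not say how reads shared by near-identical sequences were divided.

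Mdh2, on chromosome 5, encodes the mitochondrial malate dehydrogenase, which closes the cycle, and was the most abundant of the 9 genes in every library. It stood at 408, 396 and 395 TPM with DMSO and at 415, 428 and 436 TPM with ponatinib. The groups did not overlap, yet the difference of 0.095 on the log2 scale did not pass (95% interval -0.0041 to 0.19, limma adjusted p = 0.113), and it was 0.0016 under the medians of ratios scaling and -0.0022 after quantile normalization. Mdh1, the cytosolic form, stood at 136 ± 5.11 and 137 ± 5.75 TPM (adjusted p = 0.815). The ratio of Mdh2 to Mdh1 was 2.94 ± 0.14 and 3.11 ± 0.169, with overlap.

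In all, by gene rows alone, 4 of the 9 genes had groups that did not overlap, where 53.4% of tested genes had none. Ogdh and Mdh2 were higher, against 39.4% of tested genes, and Pdk1 and Idh2 lower, against 14.0%. The intervals of the 6 genes that did not pass all included 0 and ran at most from -0.15, for Pdha1, to 0.29, for Pdhb, on the log2 scale. The 8 enzyme genes together held 0.101%, 0.099% and 0.102% of TPM in the DMSO libraries and 0.103%, 0.106% and 0.108% in the ponatinib libraries. The difference of 0.0049 percentage points had an exact two-sided permutation p of 0.1, the smallest possible. That p was 0.2 without the mitochondrial genome's rows and without any 1 DMSO library. The median log2 fold change of the 8 enzyme genes was 0.077, below the 0.10 over all tested genes.

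By level, the order with DMSO was Mdh2, Cs, Pdha1, Pdhb, Ogdh, Idh3a, Pdk1, Idh2 and Dlat. Neighbours in that order lay apart in their library ranges except Pdhb and Ogdh, and Pdk1 and Idh2. With ponatinib Ogdh stood above Pdhb without overlap, and Pdk1 moved from the seventh to the last place, overlapping with Dlat, which in turn overlapped with Idh2. The place of Idh3a rests on its gene row alone. The separate Idh3a-204 row, with means of 32.3 TPM with DMSO and 37.2 TPM with ponatinib, is left out, and Idh3a would stand higher with it. TPM are per transcript length, so these orders compare transcripts and say nothing of protein.

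The 11 other mitochondrial TCA cycle genes described here were all tested, with 1 higher and 1 lower, against 29.9% and 9.88% of all tested genes. Their median log2 fold change was 0.069. Sdhd, which encodes a membrane anchor of succinate dehydrogenase, rose with ponatinib, with means of 165 ± 12.2 and 197 ± 11.4 TPM (log2 fold change 0.25, SE 0.069, limma adjusted p = 0.0218). The other succinate dehydrogenase genes, Sdha, Sdhb and Sdhc, named after their values were seen, did not pass and lay at 0.10, 0.077 and 0.018, no higher than the 0.10 of the median tested gene. The Sdhd call was lost under medians of ratios (adjusted p = 0.208), under quantile normalization (0.0887) and without ponatinib replicate 2 or 3 (0.0821 and 0.0858). Suclg2, the GDP-forming subunit of succinyl-CoA ligase, fell, with means of 32.7 ± 2.08 and 26.8 ± 1.82 TPM (log2 fold change -0.28, SE 0.075, adjusted p = 0.0214), a call lost without DMSO replicate 1 (0.0554) and without ponatinib replicate 2 (0.0868). Its ADP-forming counterpart Sucla2 was at 59.3 ± 1.24 and 63.6 ± 2.23 TPM and did not pass (0.10, adjusted p = 0.160); it was named after its value was seen.

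**Figure D3:**
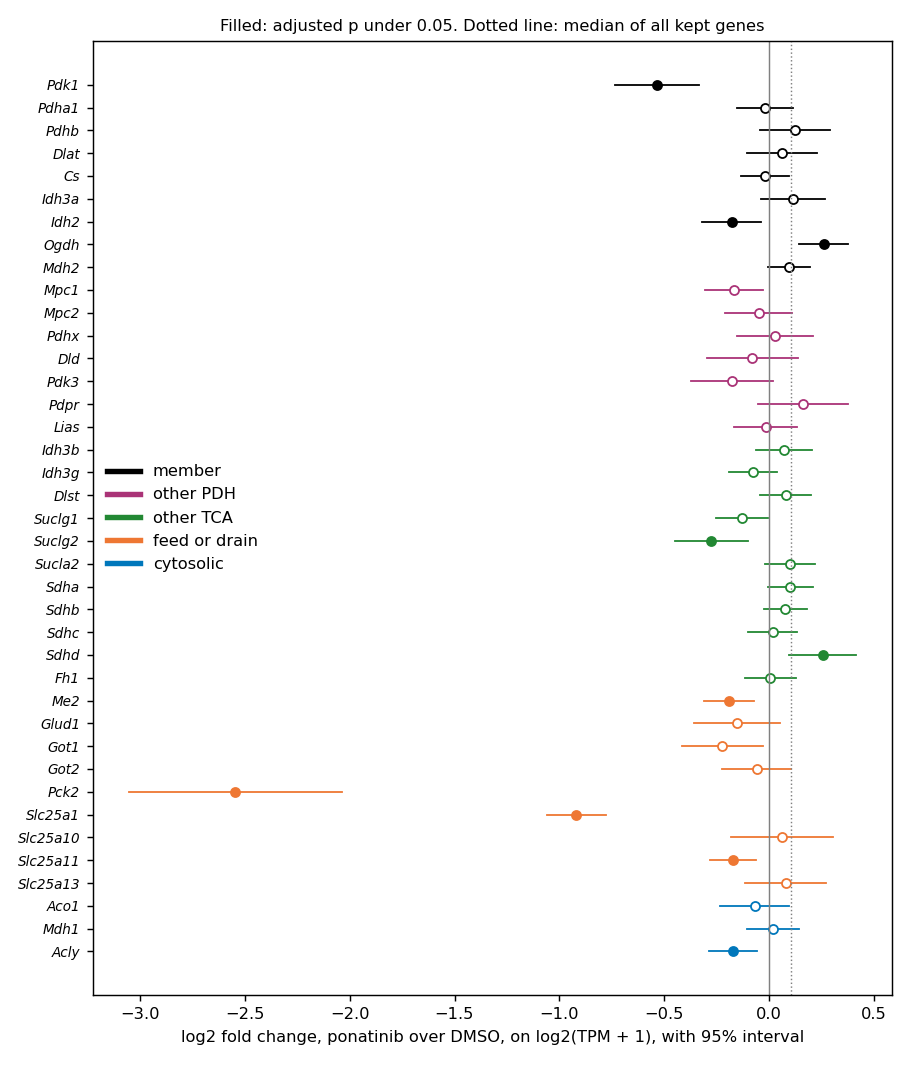
Log2 fold change of each tested gene of the pathway lists, ponatinib over DMSO on log2(TPM + 1), with its 95% interval; filled points have an adjusted p under 0.05, and the dotted line is the median of all tested genes. Pdk1 at -0.54 lies apart from the other members, which fall between -0.18 and 0.26, and Pck2 and Slc25a1 lie furthest to the left.

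Genes that feed or drain the cycle held the furthest log2 fold changes of the pathway lists. Of 9 tested among the 13 described here, 4 fell, where 9.88% of all tested genes fell. The other 5 did not pass, and the median was -0.17. Pcx, pyruvate carboxylase, which makes oxaloacetate from pyruvate, lay under the minimum mean, at 7.02 ± 0.636 and 4.44 ± 0.342 TPM without overlap, and with a minimum of 1 TPM it was called lower (-0.56, adjusted p = 0.00504); it was named after its values were seen. Pck2, the mitochondrial phosphoenolpyruvate carboxykinase, which draws on oxaloacetate, stood at 29.0, 23.2 and 47.3 TPM with DMSO and at 4.68, 4.46 and 4.70 TPM with ponatinib. DMSO replicate 3 was the highest, and the log2 fold change of -2.54 (SE 0.22, adjusted p = 3.07e-04) was -2.26 without that library. Pck2 was among the tested genes through its DMSO level, with means of 33.2 TPM with DMSO and 4.61 TPM with ponatinib. Slc25a1, which exports citrate from mitochondria, fell from 69.0 ± 1.92 to 36.1 ± 2.15 TPM (-0.92, SE 0.061, adjusted p = 1.36e-04).

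The malic enzyme gene Me2 and the 2-oxoglutarate carrier gene Slc25a11 fell slightly, by 0.19 and 0.17 on the log2 scale (adjusted p of 0.0213 and 0.0227). Of the cytosolic genes, Acly, which splits exported citrate, fell by 0.17 (adjusted p = 0.0263). It was the 1 called of 3 tested, where 39.7% of all tested genes were called. Me2 was lost without DMSO replicate 1 or any ponatinib replicate, Slc25a11 without DMSO replicates 1 or 2 or ponatinib replicates 2 or 3, and Acly without any library other than DMSO replicate 3. Across those lost calls the adjusted p lay between 0.0519 and 0.0886.

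The genes with the most similar profile to Pdk1 over the 6 libraries were Vamp4, Acp6 and Gm2a, with root mean square distances of 0.0473, 0.0502 and 0.0529 on the log2 scale after centring. In all, 45 tested genes outside the 9 lay within 0.1 of the Pdk1 profile, against 1914, 2186 and 2484 for Pdha1, Cs and Mdh2. These counts largely follow from the log2 fold changes given above, since a flat profile lies near the many genes that hardly changed. They are no separate result. The nearest to Pdha1 were Wdr36, Btf3 and Aunip, to Cs Ubxn4, Rxrb and Srp68, and to Mdh2 1110004F10Rik, Eif5a and Bcl2l13.

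**Figure D4:**
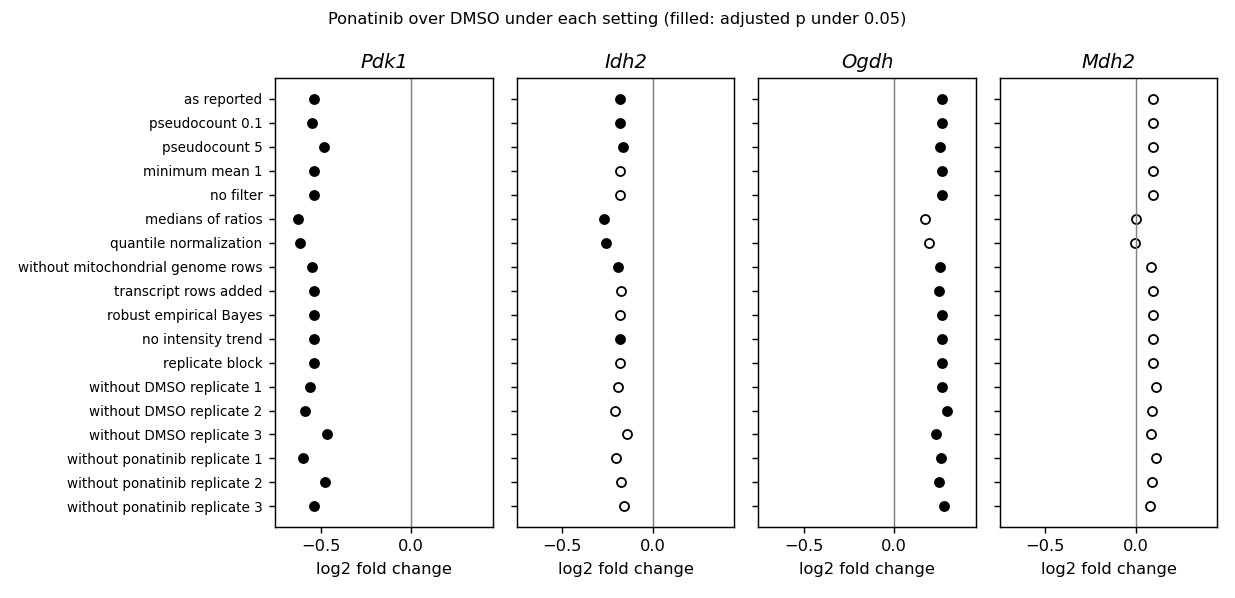
Log2 fold change of Pdk1, Idh2, Ogdh and Mdh2 as reported and under each of 17 alternative settings, with filled points where the adjusted p was under 0.05. Pdk1 stays between -0.63 and -0.47 and filled throughout, Idh2 loses its fill in 11 settings, and Ogdh in 2.

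The libraries were alike in breadth, with 6182 to 6620 gene rows at 10 TPM or more, and DMSO replicate 3 stood apart from the other DMSO libraries. Genes of the mitochondrial genome held 4.78% of its TPM, where the other DMSO libraries had 9.76% and 10.7% and the ponatinib libraries 7.16% to 8.19%. All 6 CD8 T cell markers had a mean over 10 TPM, with sums of 1494 to 1524 TPM with DMSO and 1743 to 1990 TPM with ponatinib. Markers of other cells were low but mostly higher with ponatinib. The 9 B cell markers summed to 7.49 to 14.6 and 18.2 to 20.6 TPM, with 8 of 9 higher by mean. Most of that sum was Cd79b, with means of 8.11 and 13.4 TPM. The 4 CD4 T cell markers summed to 5.21 to 9.53 and 16.4 to 19.7 TPM, with 3 of 4 higher by mean. Foxp3 rose most in TPM among them, from 1.12 to 8.14 TPM, and Zbtb7b went the other way, from 2.86 to 1.03 TPM. The sums of 12 myeloid markers, 1 of them at 0 throughout, were 1.67 to 2.27 and 4.38 to 7.02 TPM, with 11 of 12 higher by mean. Those of 9 erythroid and platelet markers were 0.910 to 1.99 and 4.25 to 8.47 TPM, with 7 of 9 higher. The 6 NK markers summed to 18.2 to 30.6 and 34.0 to 42.9 TPM, nearly all of it Eomes, which CD8 T cells express too, and all 6 were higher by mean. The part of these markers in the values above was not tested.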

How the data were processed

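The authors deposited 1 table with a column per library, whose columns each sum to 1000000, as TPM do; TPM carry no depth, so counting error is unknown, and the spread between 3 libraries per group sets the precision (median SE of a log2 fold change 0.0748). Tools listed, without roles, in the submitters' processing notes are Salmon 1.5.1, fastp 0.19.5 and DESeq2 1.22.1, with build GRCm38. Of 43072 rows, 22095 carried gene and 20977 transcript identifiers; gene rows were used, and 22011 were found in GENCODE mouse release 21 (GRCm38), which gave names and positions.

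Genes whose mean reached 10 TPM were tested, ponatinib against DMSO, on log2(TPM + 1) with limma 3.58.1 (R 4.3.3; eBayes with an intensity trend; two-sided; Benjamini-Hochberg), without the replicate number. Folds on this scale understate the change of low genes. Groups come from the sample titles. The alternatives were pseudocounts of 0.1 and 5, a minimum mean of 1 and none, medians of ratios, quantile normalization, TPM without the mitochondrial genome's rows, transcript rows added to their gene, robust or untrended empirical Bayes, the replicate number as a block, and each library left out.

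By rule, named genes are the 9 members, all called genes of the lists of pyruvate dehydrogenase, TCA cycle, cytosolic and feeding genes, 10 partner genes whatever their result, and the 3 nearest profiles of 4 members. Other genes in the text, such as Mpc1, Pcx and Kdm3a, were named after their values were seen. Members and lists were chosen with earlier results of these data known. Some genes of the pathway are not reported here, and list counts leave them out. No column belonged to another series.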

Additional observations from a re-analysis of the deposited data

How the results depend on the processing

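The Pdk1 call and its direction were the same in all 17 alternatives. The difference in the Pdk1 to subunit ratio kept its sign in the 9 alternatives run for it, between -0.70 and -0.55. Adding transcript rows could not move that ratio or the Pdk1 log2 fold change, since Pdk1, Pdha1, Pdhb and Dlat had no such rows. The direction of the enzyme genes' share of TPM was also the same in every alternative run for it. It was 0.0037 to 0.0064 percentage points higher when any 1 library was left out. Its exact permutation p was 0.2 without any 1 DMSO library and without the mitochondrial genome's rows. Medians of ratios and quantile normalization were not run for the share. Under medians of ratios the log2 fold changes were -0.11 for Pdha1, -0.030 for Dlat, -0.11 for Cs and -0.27 for Idh2. Those of Pdhb, Idh3a, Ogdh and Mdh2 were 0.031, 0.022, 0.17 and 0.0016. Lower members numbered 2, and 1 with a minimum mean of 1 TPM, with no filter, with transcript rows added, with robust empirical Bayes and with the replicate block; without any 1 library the number was 1 to 1. Higher members numbered 1, and 0 under quantile normalization and under medians of ratios; without any 1 library the number was 1 to 2. Of all tested genes 1931 were higher and 639 lower. Medians of ratios gave 1094 and 1080, so that 50.3% of calls were higher in place of 75.1%, and quantile normalization 1276 and 1001 (56.0%). Leaving out 1 library gave 1138 (ponatinib replicate 3) to 2745 (DMSO replicate 3) higher and 463 to 677 lower.

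Among genes that did not pass, small log2 fold changes turned sign. Medians of ratios and quantile normalization moved the median of all tested genes too, from 0.10 to 0.012 and 0.028. Why signs turned in the other settings was not tested. With medians of ratios Dlat was at -0.030, Pdhx at -0.057, Idh3b at -0.023, Dlst at -0.014 and Mdh1 at -0.075. With quantile normalization Dlat was at -0.036, Mdh2 at -0.0022, Pdhx at -0.061, Idh3b at -0.0097 and Mdh1 at -0.066. With transcript rows added Pdhx was at -0.20. Without any 1 library the ranges were -0.071 to 0.013 for Pdha1, -0.049 to 0.0062 for Cs, -0.013 to 0.055 for Pdhx, -0.15 to 0.0077 for Dld and -0.0030 to 0.053 for Mdh1. Deviations of same-numbered libraries correlated at -0.098, 0.127 and 0.009 across 6466 genes. Those of libraries with different numbers correlated at -0.157 to 0.113. With 3 libraries per group such correlations cannot show whether the replicate numbers pair the libraries. With the replicate block 1911 genes were higher and 646 lower, and Pdk1 had an adjusted p of 0.00390. In this balanced design the block cannot change a difference of group means. The log2 fold change of Pdk1 (-0.54) and the differences in ratio and share (-0.61 and 0.0049) were therefore fixed, and only p-values could move. The exact paired permutation p of the differences in ratio and share was 0.25, the smallest that 3 pairs allow. TPM carry no depth, so counting error could not be given.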
